A study of Homo sapiens with 6 samples.

Results

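The HSP70 chaperone system was examined in A549 cells, a human lung adenocarcinoma line, after treatment for 48 h with VP-16. VP-16 (etoposide) poisons topoisomerase II and thereby breaks both strands of DNA. The members are HSPH1, BAG1 to BAG5 and every HSPA, HSPB, DNAJA, DNAJB and DNAJC gene of the platform annotation, leaving out HSPA5, DNAJB9 and DNAJC3, which belong to the unfolded protein response of the endoplasmic reticulum. Of 18417 genes with a probe set of their own, 65 are members: 12 of HSP70 and HSP110, 4 DNAJA, 12 DNAJB, 26 DNAJC, 5 BAG and 6 HSPB genes. The groups compared were stable A549 cells: 3 arrays of cells labelled as H2AX knockdown (called P1 in the labels) and 3 arrays of control cells (called C). Both had been starved of serum overnight before the drug, and the design text gives independent experiments as the replicates. The labels give neither the vector nor the number of clones behind each group, and their drug dose lacks a readable unit. Untreated cells were not analysed here, so the comparison is between treated groups, and p-values measure the spread between experiments. H2AX is the histone variant phosphorylated around broken DNA, and the series asks which genes differ when cells short of it undergo apoptosis.

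HSP70 proteins hold unfolded stretches of other proteins and release them in a cycle driven by ATP. J proteins (DNAJA, DNAJB and DNAJC) deliver substrates and trigger ATP hydrolysis, while BAG proteins and the HSP110 branch (HSPH1, HSPA4, HSPA4L) exchange the nucleotide and so end a round. Small heat shock proteins (HSPB) need no ATP and keep unfolding proteins soluble until HSP70 takes them over. Many of these genes are switched on by HSF1, which binds inverted repeats of GAA, called heat shock elements, in their promoters.

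Of the other genes whose symbols fit the selection, HSPA1A, HSPA1B, HSPA7, HSPB2 and DNAJC25 were read only by probe sets annotated to several genes. HSPA1A and HSPA1B, the near-identical stress-inducible HSP70 genes, are therefore not measured apart and no value is given for them. H2AX itself was not lower in the knockdown-labelled arrays. It read 5.28, 5.17 and 5.49 in the knockdown-labelled replicates 1, 2 and 3, against 5.11, 5.27 and 5.26 in the controls (log2 signal), and the limma difference was 0.10 (95% interval −0.25 to 0.45, adjusted p = 0.823; exact permutation test, 2-sided, p = 0.4, the smallest possible being 0.1). All directions below are therefore those of arrays labelled H2AX knockdown. Epithelial markers fitted the labelled line in part: 3 of 5 (KRT8, KRT18 and CDH1) lay in the brightest quintile of genes, EPCAM lay in the dimmest, and none of the 6 measured alveolar and airway markers reached the brightest quintile. Immune markers (7 measured) summed to a log2 signal of 8.48 to 8.81 in knockdown-labelled and 8.88 to 9.31 in control arrays. These sums were carried by CD68, which read −0.46 (limma unadjusted p = 0.025), while PTPRC, a marker of white blood cells, stayed at 2.45 or less on every array. Fibroblast markers (7 measured) summed to 6.54 to 6.79 in knockdown-labelled and 6.29 to 6.64 in control arrays. All 7 read above 0 with overlapping groups and a median difference of 0.34, and LUM read 0.47 (limma unadjusted p = 0.0321). LUM and DCN lay in the dimmest quintile of genes, the other fibroblast markers in brighter ones. In that dimmest quintile the median difference of all genes was 0.15, and 8.77% were higher at a limma unadjusted p under 0.05. Endothelial markers (4 measured) summed to 4.99 to 5.18 in knockdown-labelled and 4.94 to 5.16 in control arrays. Their part in the members' values was not tested. As deposited, bright genes in general read lower in the knockdown-labelled arrays. The median log2 difference was 0.15, 0.07, −0.01, −0.10 and −0.25 over quintiles of all genes by signal, dimmest first. For the brightest quintile it was −0.45, −0.15 and −0.13 in knockdown-labelled replicates 1, 2 and 3, against 0.14, −0.15 and 0.01 in the control replicates. After quantile normalization the quintile medians were −0.02, −0.03, −0.02, −0.03 and −0.07. The deposited arrays also differed in spread: the SD over all genes was 1.29 to 1.42 in knockdown-labelled and 1.44 to 1.56 in control arrays. What part this spread has in the lower values of bright genes was not tested.

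None of the 65 members passed the threshold (limma, adjusted p under 0.05 over all genes), where 0.0326% of all genes did (0.0271% lower and 0.00543% higher). By the unadjusted p, taken under 0.05, 13 members read lower and 0 higher in the knockdown-labelled arrays. The 13 are HSPB8, HSPB1, HSPA8, HSPA13, HSPA4L, HSPH1, DNAJA1, DNAJA2, DNAJB1, DNAJB2, DNAJB4, DNAJB6 and DNAJC19. They are 20% of the members, against 8.38% of all genes called lower and 3.78% called higher at that p. The log2 signals of the groups did not overlap for 15 members, all lower, or 23.1%, against 9.82% of all genes lower and 7.17% higher without overlap. In the brightest quintile 9 of 19 members were lower without overlap (47.4%), against 23.2% of all genes there. The median difference over the members was −0.16, with 45 of 65 below 0 (69.2%), beside −0.01 and 51.5% below 0 over all genes. Fewer cells of a kind and less RNA per cell cannot be told apart in such bulk samples.

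As deposited, lower values were more frequent among bright genes, members included. In the brightest quintile of genes 8 of 19 members were lower at an unadjusted p under 0.05 (42.1%), against 22.9% of all genes there, and the median of those members was −0.31, against −0.25. In the fourth quintile 2 of 14 members were lower (14.3%), close to the 11.3% of genes there, with medians of −0.22 and −0.10. In the middle quintile 2 of 15 members were lower (13.3%), against 5.32% of genes, with medians of −0.12 and −0.01. In the second quintile 1 of 10 was lower (10%, against 2.06% of genes), and in the dimmest 0 of 7 (against 0.326%). Quantile normalization gave 11 lower members (16.9%, against 5.58% of all genes), 9 of them among the 13, and a median of −0.12 (−0.03 over all genes). Cyclic loess gave 9 (13.8%, against 5.23%), 7 of them among the 13, and a median of −0.11 (−0.02 over all genes). Control replicate 1 held the highest value for 44.6% of the members and 25.9% of all genes, while knockdown-labelled replicate 1 held the lowest for 30.8% and 28.4%. Without control replicate 1 the count was 6 lower members (9.23%, against 3.34% of all genes): HSPB8, HSPB1, DNAJA2, DNAJB2, DNAJB6 and DNAJC19. Over 15 alternatives the unadjusted p stayed under 0.05 in all 15 for HSPB8, HSPB1, DNAJA2 and DNAJB2, in 14 for DNAJB6 and in 14 of 14 for DNAJC19. It did so in 12 for HSPA13, in 11 for HSPA4L and HSPH1, in 11 of 14 for DNAJB4, in 10 for DNAJB1, in 9 for HSPA8 and in 6 for DNAJA1. The alternatives for DNAJC19 all rest on probe set 7974190, alone or averaged with probe set 8092314. By itself probe set 8092314 read −0.05, and the average of both read −0.39. What part brightness or control replicate 1 has in the lower values was not tested.

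**Figure D1:**
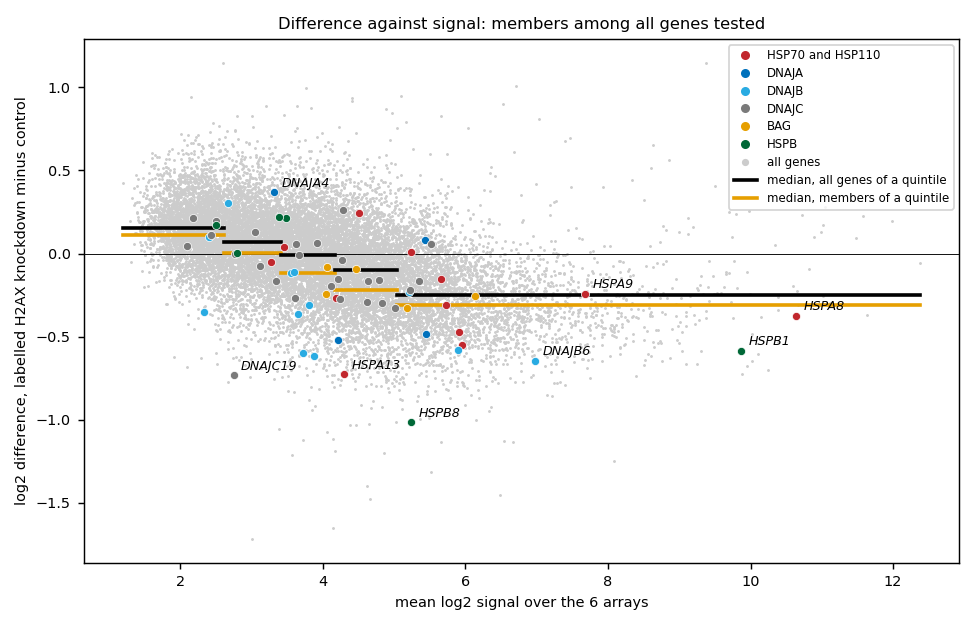
Log2 difference (labelled H2AX knockdown minus control, vertical axis) against the mean log2 signal over 6 arrays (horizontal axis) for all 18417 genes in grey and the 65 members coloured by role, with the median of each quintile of genes in black and of its members in orange. Member medians lie under those of all genes in every quintile, from 0.11 against 0.15 in the dimmest to −0.31 against −0.25 in the brightest.

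Pairs of the inverted repeats that make up heat shock elements were searched in the promoters. At least 1 pair lay in the window searched for 16 members, of which 10 are printed. The windows are the 250 bases before the start in RefSeq promoters (GRCh38.p14), which matched 57 of the 65 members, all 13 included. BAG4, DNAJB3, DNAJC1, DNAJC22, DNAJC24, DNAJC5B, HSPA12B and HSPA14 had no window. A pair of inverted repeats was searched as GAANNTTC or TTCNNGAA, each of which is its own reverse complement, so that both strands are covered. A triple, GAANNTTCNNGAA or TTCNNGAANNTTC, contains 2 overlapping pairs. In the lines below the pairs stand in capitals with up to 35 bases on each side, written 5′ to 3′ along the strand of the gene; the first 8 are all the lower members with a pair. Of the other 8 members with a pair, 6 read above 0, and HSPA6 and DNAJA4 are printed as examples of these, HSPA6 for its triple (0.04, and −0.01 after quantile normalization) and DNAJA4 as the highest of all members (0.37). The 6 not printed are HSPB6 (0.22, with 2 pairs), DNAJC15 (0.22), HSPB3 (0.17), DNAJB7 (0.10), HSPA1L (−0.05) and BAG2 (−0.33).
HSPB8: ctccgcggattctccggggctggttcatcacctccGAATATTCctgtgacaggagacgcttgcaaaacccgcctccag
HSPB1: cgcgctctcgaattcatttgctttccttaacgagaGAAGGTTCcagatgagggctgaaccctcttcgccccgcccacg
HSPA8: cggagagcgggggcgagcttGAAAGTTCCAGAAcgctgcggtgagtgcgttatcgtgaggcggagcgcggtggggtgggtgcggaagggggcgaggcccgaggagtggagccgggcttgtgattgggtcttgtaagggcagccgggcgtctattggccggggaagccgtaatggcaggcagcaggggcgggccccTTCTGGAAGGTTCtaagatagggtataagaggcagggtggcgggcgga
HSPA4L: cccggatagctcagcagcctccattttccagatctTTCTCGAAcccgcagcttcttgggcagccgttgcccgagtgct
DNAJA1: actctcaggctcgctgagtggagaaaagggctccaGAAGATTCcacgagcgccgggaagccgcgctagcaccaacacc
DNAJB1: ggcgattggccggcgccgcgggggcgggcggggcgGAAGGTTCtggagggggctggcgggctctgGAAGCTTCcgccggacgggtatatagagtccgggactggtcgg
DNAJB4: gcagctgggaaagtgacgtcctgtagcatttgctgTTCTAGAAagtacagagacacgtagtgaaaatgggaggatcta
DNAJB6: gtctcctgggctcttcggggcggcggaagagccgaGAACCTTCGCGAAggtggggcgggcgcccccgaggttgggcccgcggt
HSPA6: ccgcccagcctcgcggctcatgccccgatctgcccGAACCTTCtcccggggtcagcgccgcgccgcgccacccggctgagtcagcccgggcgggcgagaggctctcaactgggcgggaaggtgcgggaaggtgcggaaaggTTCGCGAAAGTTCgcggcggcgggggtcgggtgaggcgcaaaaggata
DNAJA4: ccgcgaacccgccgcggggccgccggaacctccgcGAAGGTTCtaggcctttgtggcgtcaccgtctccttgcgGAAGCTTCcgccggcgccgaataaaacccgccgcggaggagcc

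On GRCh38.p14 these stretches lie for HSPB8 at chr12:119178808-119178885 (plus strand), HSPB1 at chr7:76302456-76302533 (plus strand), HSPA8 at chr11:123062144-123062386 (minus strand), HSPA4L at chr4:127782117-127782194 (plus strand) and DNAJA1 at chr9:33025040-33025117 (plus strand). They lie for DNAJB1 at chr19:14518402-14518509 (minus strand), DNAJB4 at chr1:78004806-78004883 (plus strand), DNAJB6 at chr7:157336838-157336920 (plus strand), HSPA6 at chr1:161524325-161524513 (plus strand) and DNAJA4 at chr15:78264436-78264552 (plus strand). Each lies before the RefSeq start that its window was drawn for, and genes with several starts may have other first exons.

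The HSPA8 stretch holds 2 triples, the first of them 230 bases before the start, and DNAJB6 and HSPA6 hold 1 triple each. These are the only 3 of the 57 members with a triple. The DNAJB1 stretch holds 2 separate pairs, at 77 and 47 bases before the start, the second just before a TATA sequence. At least 1 pair was found for 8 of the 13 lower members (61.5%) and for 8 of the other 44 members with a window (18.2%). It was found in 12.9% of all 14237 tested genes with a window and in 11.6% of all 35116 RefSeq windows of this length, and a triple in 0.441% of them. The 16 members with a pair had a median difference of −0.35, beside −0.16 for the 41 without, but 10 of the 16 and 31 of the 41 were below 0. Outside the 13 lower members, the 8 with a pair had a median of 0.14, beside −0.15 for the 36 without. The members with a pair also differed in signal. All the lower ones but DNAJB4 lay in the brightest quintile, where 22.9% of all genes were lower. All the others but BAG2 lay in the 3 dimmest quintiles. On quantile-normalized values the limma unadjusted p was 0.0884 for HSPA4L, 0.125 for DNAJA1 and 0.0823 for DNAJB1. What part brightness has in this split was not tested. Over all genes, 9.48% of those with the pair and 9.18% of those without it were lower at an unadjusted p under 0.05. Genes with several starts have several windows (12 of the 57 members), and a match of letters is not evidence of a bound site.

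**Figure D2:**
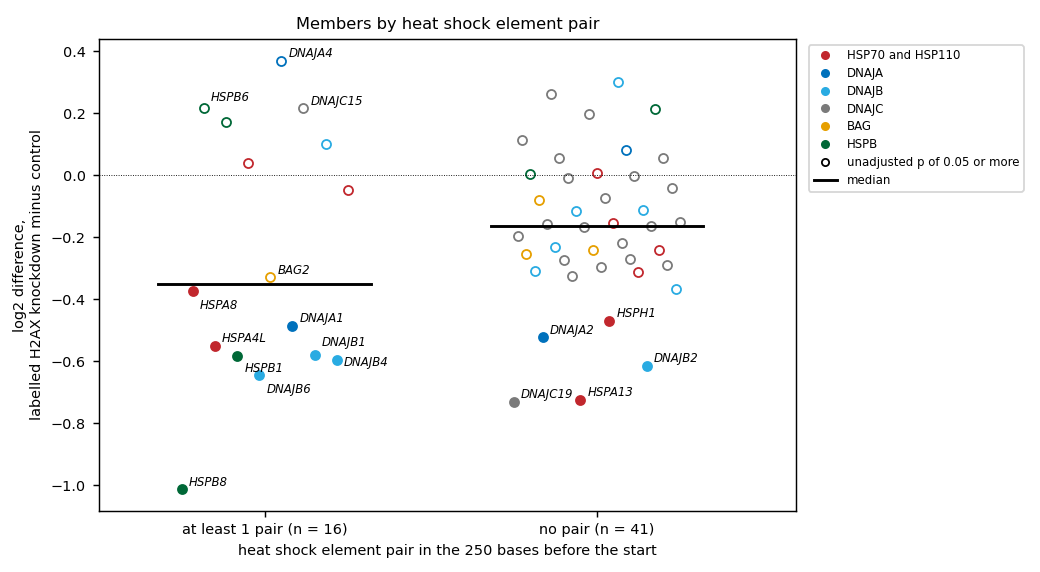
Log2 difference (labelled H2AX knockdown minus control, vertical axis) of the 57 members with a RefSeq window, split by whether the 250 bases before the start hold a heat shock element pair. Filled points have an unadjusted limma p under 0.05 and bars are medians, −0.35 with a pair and −0.16 without; the members with a pair fall into 8 filled points at −0.37 or lower and 8 open ones from −0.33 to 0.37. All filled points with a pair but DNAJB4 lie in the brightest quintile of genes, and all such open ones but BAG2 in dimmer quintiles.

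The small heat shock proteins held the largest difference of any member, HSPB8, a second lower gene, HSPB1, and 4 genes without a difference past an unadjusted p of 0.05. HSPB8 (probe set 7959102), which works with BAG3 to send misfolded proteins to autophagy, read 4.17, 5.25 and 4.79 in knockdown-labelled replicates 1, 2 and 3, against 6.10, 5.36 and 5.78 in the controls. All 3 knockdown-labelled arrays lay below all 3 controls, but knockdown-labelled replicate 2 and control replicate 2 were only 0.11 apart. The difference was −1.01 ± 0.256 (SE), a ratio of 0.496 on the linear scale, with a limma unadjusted p of 0.00162 and an adjusted p of 0.245. It was −0.88 after quantile normalization and −0.73 without knockdown-labelled replicate 1. HSPB1 (probe set 8133721), the abundant stress-inducible HSP27 that also steadies actin filaments, read 9.37, 9.71 and 9.66 in knockdown-labelled arrays, against 10.33, 9.99 and 10.18 in controls. The groups did not overlap, and the difference was −0.58 ± 0.170 (SE; limma unadjusted p = 0.00433, adjusted p = 0.279), or −0.44 after quantile normalization.

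HSPB3, HSPB6, HSPB7 and HSPB9, which are known mainly from muscle, heart or testis, had differences of 0.00 to 0.22 and overlapped between the groups. Their signals were dim, with means of 2.50 to 3.48 on the log2 scale. HSPB6 averaged 3.49 ± 0.48 in knockdown-labelled arrays and 3.27 ± 0.30 in controls (SD, n = 3 each), with knockdown-labelled replicate 1 at 4.04 and without it a difference of −0.06. The median of the 6 small heat shock genes was 0.09 as deposited and turned to −0.04 after quantile normalization. CRYAB, the alpha-crystallin relative outside the members, read −0.37 (limma unadjusted p = 0.142).

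**Figure D3:**
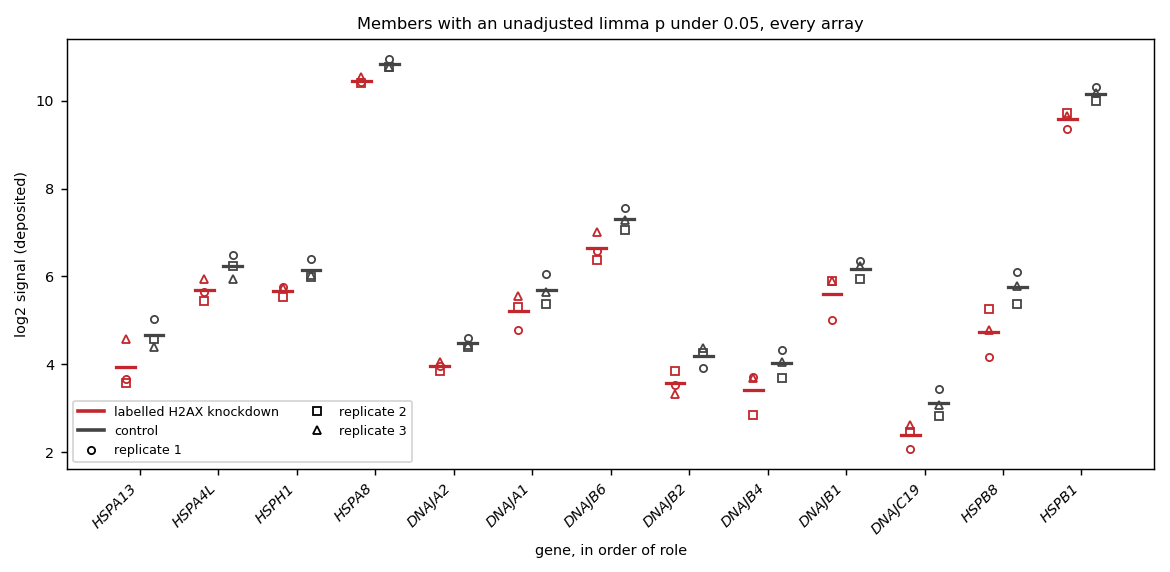
Log2 signal (vertical axis) of the 13 members with an unadjusted limma p under 0.05 on each of the 3 arrays labelled H2AX knockdown (red, left) and the 3 controls (grey, right); symbols mark the replicate and bars the group means. The groups do not overlap for HSPH1, HSPA8, DNAJA2, DNAJB6, DNAJB2, DNAJB1, DNAJC19, HSPB8 and HSPB1, and overlap for HSPA13, HSPA4L, DNAJA1 and DNAJB4.

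Among HSP70 and HSP110 genes, 4 of 12 were lower at an unadjusted p under 0.05 (33.3%, against 8.38% of all genes) and 0 higher, and the median of the 12 was −0.26. Their median signal of 5.45 lay in the brightest quintile, where 22.9% of all genes were lower. On quantile-normalized values 2 were lower (16.7%, against 5.58% of all genes) and the median was −0.12. With cyclic loess 1 was lower (8.33%, against 5.23%). HSPA8 (probe set 7952325), the constitutive cytosolic HSP70 that also strips clathrin from vesicles, read 10.42, 10.41 and 10.54 in knockdown-labelled arrays, against 10.96, 10.77 and 10.77 in controls. The groups did not overlap, and the difference was −0.37 ± 0.155 (SE; limma unadjusted p = 0.0312, adjusted p = 0.372), with −0.36 after quantile normalization but −0.24 (unadjusted p = 0.109) after cyclic loess. HSPA8 has many processed pseudogenes, so the transcripts behind its signal are uncertain. Its promoter stretch, printed above, is the one with 2 triples.

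The HSP110 branch lay below 0 in all 3 of its genes. They are in the brightest quintile, where 85.3% of all genes were below 0. HSPH1 (probe set 7970864), a nucleotide exchange factor that takes part in dissolving aggregates with HSPA8 and DNAJB1, read 5.76, 5.52 and 5.73 in knockdown-labelled arrays, against 6.40, 5.99 and 6.04 in controls. The groups did not overlap, and the difference was −0.47 ± 0.171 (SE; limma unadjusted p = 0.0161, adjusted p = 0.333). HSPA4L, a relative best known from testis, read 5.65, 5.44 and 5.95 in knockdown-labelled arrays, against 6.50, 6.25 and 5.95 in controls. Its lowest control and highest knockdown-labelled array met at 5.95, and the difference was −0.55 ± 0.192 (SE; limma unadjusted p = 0.0128). HSPA4, the third of them, was at −0.31 with overlapping groups (unadjusted p = 0.115). Quantile normalization reduced these differences to −0.25 for HSPH1, −0.35 for HSPA4L and −0.12 for HSPA4, none with an unadjusted p under 0.05.

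HSPA13 (probe set 8069532), an HSP70-like protein of microsomes that lacks the peptide-binding part, read 3.67, 3.56 and 4.58 in knockdown-labelled arrays, against 5.04, 4.56 and 4.39 in controls. Knockdown-labelled replicate 3 lay within the controls, and the difference of −0.73 ± 0.256 (SE; limma unadjusted p = 0.014) stayed at −0.68 after quantile normalization. HSPA9, the mitochondrial HSP70 of the import motor, read 7.61, 7.45 and 7.63 in knockdown-labelled arrays, against 7.98, 7.59 and 7.84 in controls, a difference of −0.24 (limma unadjusted p = 0.17) that was −0.01 after quantile normalization and 0.025 after cyclic loess. HSPA14, which works on the ribosome together with DNAJC2, did not overlap between the groups at 4.12, 4.06 and 3.97 in knockdown-labelled arrays, against 4.37, 4.19 and 4.40 in controls, but its difference of −0.27 had an unadjusted p of 0.108. HSPA6, a strictly stress-induced HSP70, differed by 0.04 (95% interval −0.33 to 0.40) at a dim mean signal of 3.45. The probe set that reads it together with HSPA7 was not used. HSPA12A, HSPA12B, HSPA1L and HSPA2, all of them distant or tissue-restricted relatives, ran from −0.15 to 0.25 and overlapped. The 3 probe sets of HSPA1L gave identical values.

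Of the DNAJA and DNAJB genes, the J proteins closest to bacterial DnaJ and yeast Sis1, 6 of 16 were lower at an unadjusted p under 0.05 (37.5%, against 8.38% of all genes), with a median of −0.33. The count was 6 on quantile-normalized values (37.5%, against 5.58% of all genes) and 5 with cyclic loess (31.25%, against 5.23%), but of partly other genes. DNAJA1 and DNAJB1 left it in both (limma unadjusted p of 0.125 and 0.0823 on quantile-normalized values), and DNAJB6 with cyclic loess. DNAJB12 and the dim DNAJB3 entered it in both (limma unadjusted p of 0.0431 and 0.0249 on quantile-normalized values). DNAJA2 (probe set 8001185), a cytosolic partner of HSPA8 in refolding, read 3.95, 3.85 and 4.04 in knockdown-labelled arrays, against 4.59, 4.40 and 4.43 in controls. The arrays of a group lay close together and the groups apart, with a difference of −0.52 ± 0.156 (SE; limma unadjusted p = 0.00521, adjusted p = 0.286) and −0.49 after quantile normalization. DNAJA1, the other main cytosolic form, read 4.77, 5.32 and 5.54 in knockdown-labelled arrays, against 6.06, 5.38 and 5.65 in controls, and the groups overlapped. Its difference of −0.49 ± 0.224 (SE) was −0.27 without knockdown-labelled replicate 1 and −0.31 without control replicate 1. DNAJA3, the mitochondrial form, was at 0.08, and DNAJA4, which carries 2 element pairs, at 0.37 (limma unadjusted p = 0.122), the highest value of any member. DNAJA4 read 4.01, 3.06 and 3.44 in knockdown-labelled arrays, against 3.01, 3.37 and 3.03 in controls, and without knockdown-labelled replicate 1 the difference was 0.12.

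DNAJB6 (probe set 8180310), which holds back polyglutamine aggregates, read 6.57, 6.38 and 7.01 in knockdown-labelled arrays, against 7.56, 7.06 and 7.29 in controls. The difference was −0.65 ± 0.198 (SE; limma unadjusted p = 0.00612, adjusted p = 0.289), and its second probe set, 8137627, gave −0.70 with no overlap either. The first probe set read −0.41 (unadjusted p = 0.0395) after quantile normalization and −0.37 (unadjusted p = 0.0575) after cyclic loess. DNAJB2 (probe set 8048523), a neuronal J protein that binds ubiquitin chains, read 3.52, 3.85 and 3.32 in knockdown-labelled arrays, against 3.92, 4.26 and 4.36 in controls. It was apart between groups, by −0.61 ± 0.186 (SE; limma unadjusted p = 0.00571), and −0.63 after quantile normalization. DNAJB1, the classic stress-induced HSP40 and HSF1 target, read 5.0, 5.90 and 5.90 in knockdown-labelled arrays, against 6.35, 5.95 and 6.25 in controls. Knockdown-labelled replicates 2 and 3 lay just under the lowest control, and the difference of −0.58 ± 0.232 (SE; limma unadjusted p = 0.0265) was −0.28 without knockdown-labelled replicate 1. DNAJB4, its close relative, read 3.71, 2.85 and 3.70 in knockdown-labelled arrays, against 4.33, 3.68 and 4.05 in controls, a difference of −0.60 ± 0.240 (SE; limma unadjusted p = 0.027) with overlapping groups. Without knockdown-labelled replicate 2 it was −0.31 (unadjusted p = 0.168).

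The remaining DNAJB genes ran from −0.37 to 0.30. DNAJB12, a J protein of the endoplasmic reticulum membrane, did not overlap between groups, at 3.18, 3.66 and 3.59 in knockdown-labelled arrays, against 3.84, 3.92 and 3.76 in controls (−0.37, limma unadjusted p = 0.0542). DNAJB14, its paralog, was at −0.31 and DNAJB11, a J protein inside the endoplasmic reticulum, at −0.11. DNAJB3, DNAJB7, DNAJB8 and DNAJB13, which are known mainly from testis, ran from −0.35 to 0.30.

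**Figure D4:**
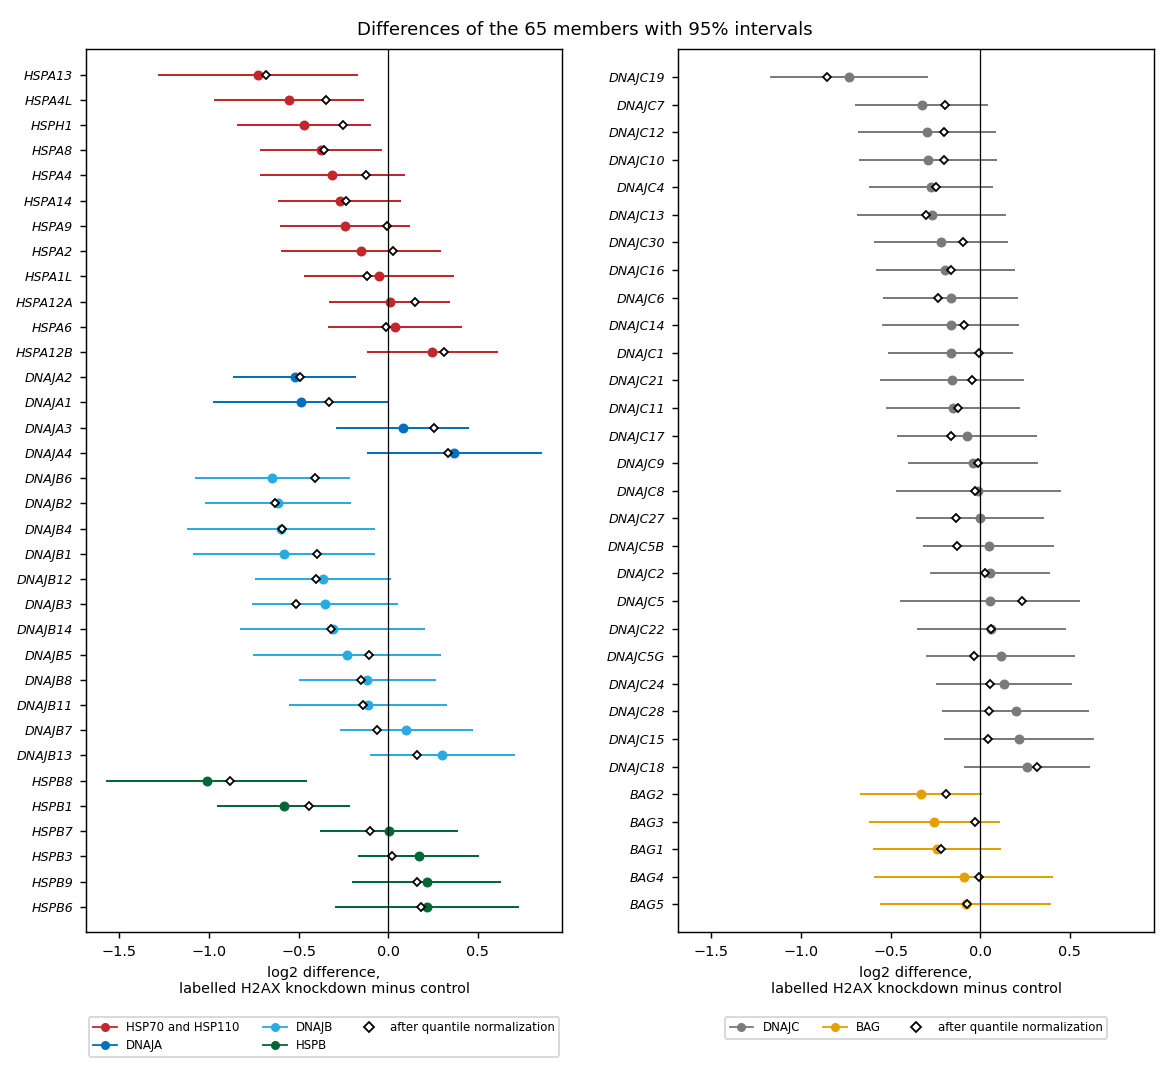
Log2 difference (horizontal axis) of each of the 65 members, labelled H2AX knockdown minus control, with its 95% limma interval, by role; diamonds are the differences after quantile normalization. HSPB8 at −1.01 stands furthest to the left, and the intervals of 13 members lie wholly below 0 while none lies wholly above it.

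The DNAJC genes, a mixed group whose J domain sits in otherwise unrelated proteins, stood near the background: 1 of 26 was lower at an unadjusted p under 0.05 (3.85%, against 8.38% of all genes), with a median of −0.11. The 39 other members held the remaining 12. The 1 gene was DNAJC19, a J protein of the mitochondrial import motor, for which 2 probe sets disagreed. Probe set 7974190 read 2.07, 2.46 and 2.63 in knockdown-labelled arrays, against 3.44, 2.83 and 3.08 in controls, a difference of −0.73 ± 0.201 (SE; limma unadjusted p = 0.00299). Probe set 8092314 read 2.52, 2.28 and 2.36 in knockdown-labelled arrays, against 2.33, 2.62 and 2.37 in controls, with overlapping groups and a difference of −0.05. The gene has processed pseudogenes, so its value is uncertain.

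DNAJC4 and DNAJC30 also did not overlap between the groups, with differences of −0.28 and −0.22 and limma unadjusted p of 0.103 and 0.22. DNAJC7, an adaptor between HSP70 and HSP90, was at −0.33, and DNAJC10, a disulfide reductase of the endoplasmic reticulum, at −0.29. DNAJC2, the J protein of the ribosome, read 3.61, 3.73 and 3.61 in knockdown-labelled arrays and 3.60, 3.58 and 3.62 in controls, a difference of 0.05 with a 95% interval of −0.27 to 0.38. DNAJC5, the cysteine string protein of secretory vesicles, had a difference of 0.06 with knockdown-labelled values spread over 6.01, 5.68 and 4.97, against 5.43, 5.64 and 5.42 in controls. DNAJC9, a chaperone of histones H3 and H4, was at −0.04. The upper end of the group was DNAJC18, at 0.26 (unadjusted p = 0.129).

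All 5 BAG genes were below 0 as deposited, their median being −0.24 (−0.07 on quantile-normalized values), and none had an unadjusted p under 0.05 in limma. BAG2 and BAG3 lie in the brightest quintile, where 85.3% of all genes were below 0 and 23.2% were lower without overlap. BAG4 lies in the fourth quintile (66.1% of all genes below 0) and BAG1 and BAG5 in the middle one (51.3%). BAG2, an inhibitor of the ubiquitin ligase CHIP, read 5.03, 4.90 and 5.11 in knockdown-labelled arrays, against 5.38, 5.27 and 5.37 in controls, a difference of −0.33 ± 0.155 (SE) without overlap (unadjusted p = 0.0526). BAG3, the stress-induced partner of HSPB8, read 5.75, 6.13 and 6.15 in knockdown-labelled arrays, against 6.30, 6.21 and 6.29 in controls. Its groups did not overlap, but the difference of −0.26 was −0.13 without knockdown-labelled replicate 1 and −0.03 after quantile normalization. BAG1, which also binds BCL2, was at −0.24 with overlapping groups. BAG4 and BAG5 were at −0.09 and −0.08, and both changed sign when single arrays were left out.

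**Figure D5:**
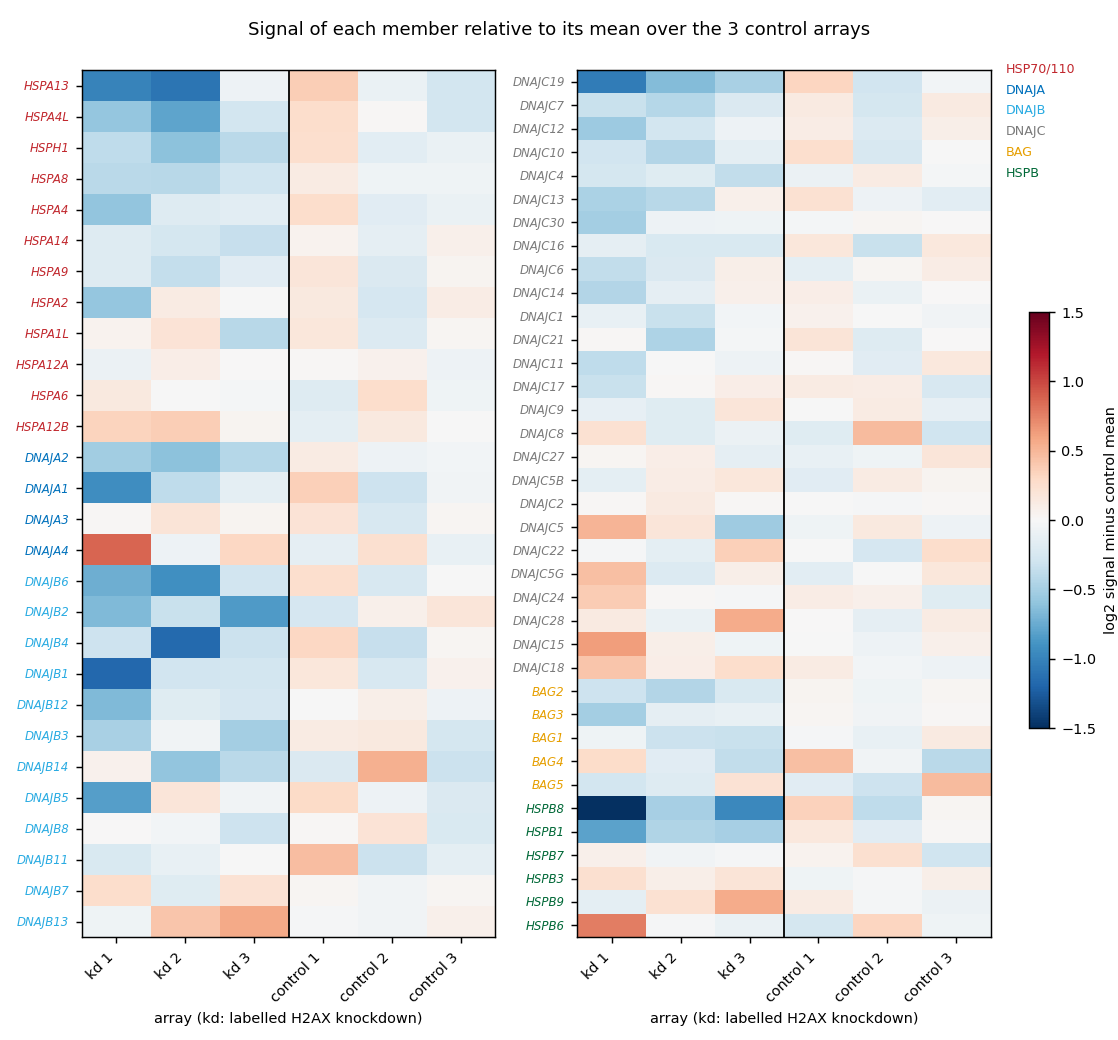
Log2 signal of each of the 65 members on each array minus its mean over the 3 controls (colour scale from −1.5 to 1.5), with the arrays labelled H2AX knockdown on the left and the controls on the right and gene names coloured by role. Blue cells gather in the HSP70, DNAJB and HSPB8 and HSPB1 rows of the knockdown-labelled arrays, where HSPB8 averages −1.01, while the DNAJC rows are mixed.

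Among the chaperones around this system none passed the threshold over all genes. Of 15 measured HSP90 genes and co-chaperones, 5 were lower at an unadjusted p under 0.05 (33.3%, against 8.38% of all genes) and 0 higher, and the median of the 15 was −0.37 (−0.19 on quantile-normalized values and −0.15 with cyclic loess). The 5 include CHORDC1, an HSP90 co-chaperone (−1.19, limma adjusted p = 0.0591), UNC45A, a myosin chaperone (−0.62), and PTGES3, which is p23 (−0.51). Among 11 other regulators of HSP70, 3 were lower (27.3%, against 8.38% of all genes), SGTB (−0.51), the mitochondrial exchange factor GRPEL1 (−0.44) and STIP1, which links HSP70 to HSP90 (−0.44). STIP1 is also among the 5 lower HSP90 genes and co-chaperones, and STUB1 (0.15) is in both lists too, so the lists are not separate. The median of the 11 was −0.20, and −0.098 on quantile-normalized values and −0.061 with cyclic loess. Of 16 chaperonin and prefoldin genes 8 were lower (50%, against 8.38% of all genes), among them PFDN1 (−0.67), VBP1 (−0.62) and CCT6A (−0.57). The median of the 16 was −0.42, and −0.23 on quantile-normalized values and −0.20 with cyclic loess. Median signals of these 3 lists were 5.89, 5.28 and 5.94, within the brightest quintile, where 22.9% of all genes were lower. On quantile-normalized values 2, 1 and 2 of their genes were lower at an unadjusted p under 0.05 (13.3%, 9.09% and 12.5%, against 5.58% of all genes). With cyclic loess the counts were 2, 1 and 3 (13.3%, 9.09% and 18.8%, against 5.23%). HSF1 read 5.38, 5.86 and 5.74 in knockdown-labelled arrays, against 5.87, 5.67 and 5.84 in controls, overlapping, with a difference of −0.13 that was 0.052 after quantile normalization; HSF2 was not measured with a probe set of its own. Of the endoplasmic reticulum chaperones left out of the members, HSPA5 was at −0.24 (−0.01 after quantile normalization, and 0.031 after cyclic loess), DNAJB9 at −0.66 (limma unadjusted p = 0.00247) and DNAJC3 at −0.55 (unadjusted p = 0.0215).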

How the data were processed

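RNA of 6 samples was measured on Affymetrix arrays. The authors deposited log2 signals of 33297 probe sets, for which the submitters' processing notes name RMA; its version is not given in the sources used here, and the log2 scale was read from the values. RMA compresses differences of dim probe sets. Signal over background cannot be read from these values and the number of arrays limits the precision. Probe sets were named through the platform annotation: 19460 had 1 gene, 1754 several and 12083 none, and only the first kind was used, with the highest mean over the 6 arrays per gene. Groups came from the sample titles. Genes were tested with limma 3.58.1 (R 4.3.3, lmFit and eBayes) on the log2 values of all 18417 genes, knockdown-labelled minus control, 2-sided, without covariates, with Benjamini-Hochberg adjustment. Members and lists were chosen with earlier results of these data known. Named were, per role, up to 6 members with an unadjusted p under 0.05, the brightest member, set genes such as HSPA8, HSPA9, DNAJB1 and all BAG genes, and up to 3 genes per further list; other members, markers and motifs were singled out after their values were seen. Normalizations acted on all probe sets. On simulated arrays with 18417 genes, limma recovered 88% of genes changed by 1 log2 unit and 100% of those changed by 2. Of its 201 calls there, 13 were false. In the measured arrays HSPB8 (−1.01) and CHORDC1 (−1.19) did not pass, at limma adjusted p of 0.245 and 0.0591. The recovery is that of the simulated arrays only and cannot tell how often a change of 1 is found in the measured ones. Figures were drawn with matplotlib 3.10.9.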

Additional observations from a re-analysis of the deposited data

How the results depend on the processing

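Over 15 alternatives H2AX stayed unlowered (0.01 to 0.28) and no member passed the threshold except HSPB8 with array weights (adjusted p = 0.0488; 0.0488 to 0.928 over its alternatives). That fit weighted control replicate 3 at 5.03 and the other arrays at 0.41 to 1.22. Its control values therefore rest mostly on control replicate 3. Array weights gave 21 lower and 2 higher members at an unadjusted p under 0.05 (against 11.97% and 7.54% of all genes, where 155 genes passed the threshold lower and 36 higher), 1 member past the threshold and 4 genes of the other lists past it (CHORDC1, DNAJB9, UNC45A and VBP1); genes at or above the median signal gave a member median of −0.26 and 1 list gene (CHORDC1). Leaving out 1 array gave 6 to 15 lower members (9.23% to 23.1%, against 3.34% to 10.9% of all genes). It gave 0 to 2 higher members, against 1.78% to 4.98% of all genes, and 0 to 1 list genes past the threshold. All 13 lower members stayed below 0 in each alternative that gave them a value. Signs turned for BAG4 with array weights (0.093), HSPA9 (0.025) and HSPA5 (0.031) with cyclic loess, and HSF1 and the median of the heat shock factor list with cyclic loess (0.093 each) and quantile normalization (0.052 each). With single arrays left out, BAG4 ran from −0.29 to 0.14, BAG5 from −0.24 to 0.16, DNAJC5 from −0.17 to 0.35, and HSF1 from −0.23 to 0.0089; the heat shock factor list ran from −0.19 to 0.0089. The causes were not tested. The shared replicate numbers were not used to pair the samples. Deviations of same-numbered arrays correlated at −0.31, −0.02 and 0.07 over genes. Shifts of whole arrays enter these correlations, so they cannot tell whether same-numbered arrays share an experiment. The replicate block gave 11 lower members (16.9%, against 6.97% of all genes) and 0 past the threshold, with H2AX at 0.10.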
